A study of Mus musculus with 12 samples.

Results

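The testis of the Topaz1 knockout mouse was followed across 5 days of juvenile life. Knockout (KO, Topaz1-/-) testes taken 20 days after birth (P20) were compared with KO testes taken at P15, over all 45281 probes of an Illumina mouse bead array. Each age had 3 KO arrays, so that 6 of the 12 arrays of the series are the subject here. The other 6 arrays are wild-type (WT) testes of the same 2 ages, 3 per age, and serve as the reference for the same interval. All mice were of the C57Bl/6N strain, the KO genotype is the only allele named, and no agent was given. Each array is 1 biological repeat. Whether a repeat came from 1 animal or several is not stated, so the p-values measure the spread between these samples. Topaz1 encodes a germ-cell protein needed for male meiosis.

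In the mouse the first wave of spermatogenesis runs nearly in step. Spermatogonia enter meiosis together, spermatocytes pass through the long pachytene stage, divide, and give rise to round spermatids that later build an acrosome, a flagellum and a compact nucleus. Sertoli cells nurse the germ cells inside the tubule, and peritubular, Leydig, vascular and immune cells lie around it. As germ cells multiply, the somatic cells make up a smaller share of the organ. A pachytene spermatocyte also silences its unpaired X and Y chromosomes. The arrays were normalized to a common distribution, so levels are relative to the other transcripts. In bulk testis RNA, a smaller share of the organ, fewer cells of a type and less RNA per cell cannot be told apart. This holds for every fall described here.

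Levels are given as log2(intensity + 50) of the authors' quantile-normalized intensities. A gene is represented by its brightest named probe, and 19057 genes had one. Changes are limma estimates with their standard error (SE, n = 3 arrays per group), and a gene is said to rise or fall where its adjusted p (Benjamini-Hochberg, across every probe on the array) was at most 0.05. Background lay near 7.53 on every array. The values were not background-subtracted, which makes folds of dim genes too small.

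A few promoters show what lies upstream of genes that rose. A-MYB (Mybl1) is the transcription factor that drives much of the pachytene programme, RFX factors bind the X-box of cilium genes, and CREM binds the cAMP response element (CRE) in spermatid genes. The letters searched, on both strands, were TAACTG for MYB, GTTGCCA, one arm of the site, for the X-box and the palindrome TGACGTCA for the CRE. No 2 of these motifs overlap in the stretches shown. Each stretch holds the 150 bases before a RefSeq transcript start (build GRCm38.p6), in the direction of the gene, with matches in capitals.
Tcp10a, chr17:7324510-7324659, plus strand, MYB match starting 88 bases before the start: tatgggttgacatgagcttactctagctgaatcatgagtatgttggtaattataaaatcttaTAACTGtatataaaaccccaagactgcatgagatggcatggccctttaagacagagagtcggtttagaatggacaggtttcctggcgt
Catsper2, chr2:121413793-121413942, minus strand, MYB match 44 bases before the start: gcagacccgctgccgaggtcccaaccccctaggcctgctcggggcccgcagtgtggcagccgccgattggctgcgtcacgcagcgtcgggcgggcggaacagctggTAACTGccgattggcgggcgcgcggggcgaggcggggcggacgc
Ldhc, first of 2 promoters, chr7:46861113-46861262, plus strand, MYB match 28 bases before the start: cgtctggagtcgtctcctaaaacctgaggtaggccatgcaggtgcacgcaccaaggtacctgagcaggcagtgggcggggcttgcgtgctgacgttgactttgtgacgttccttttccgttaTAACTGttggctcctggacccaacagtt
Rfx4, second of 2 promoters, chr10:84837998-84838147, plus strand, MYB matches 131 and 51 bases before the start: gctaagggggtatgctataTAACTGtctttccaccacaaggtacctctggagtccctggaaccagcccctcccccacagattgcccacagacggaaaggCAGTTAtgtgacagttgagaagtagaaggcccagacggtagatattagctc
Tekt1, first of 2 promoters, chr11:72361883-72362032, minus strand, X-box letters 15 bases before the start: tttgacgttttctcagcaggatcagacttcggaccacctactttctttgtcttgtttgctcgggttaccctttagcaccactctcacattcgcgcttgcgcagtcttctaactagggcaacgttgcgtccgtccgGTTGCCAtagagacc
Ldha, first of 2 promoters, chr7:46845654-46845803, plus strand, CRE 12 bases before the start: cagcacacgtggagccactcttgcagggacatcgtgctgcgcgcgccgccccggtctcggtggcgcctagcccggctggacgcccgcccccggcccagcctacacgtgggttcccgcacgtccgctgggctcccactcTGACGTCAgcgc

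Over windows of 300 bases, from 250 before to 50 after the start, the MYB letters were in 8.83% of 2628 promoters of genes that rose and in 5.56% of 4297 promoters of genes that fell, against 8.33% of promoters of all measured genes and 10.1% of all promoters in the table. The X-box letters were in 7.00% of promoters of risen genes, 3.24% of fallen, 4.10% of measured and 4.38% of all. The CRE was in 2.78%, 2.77%, 2.36% and 1.79% in that order. Median GC content was 59.3% in promoters of risen genes, 61.3% in those of fallen, 57.3% in those of measured genes and 52.7% in all. A match describes letters and not a bound site. The genes shown rose and were picked for having a match, out of 95 named genes that changed and had a promoter. Matched but not shown were Dnajc7, which rose, and Robo4, which fell. Dnajc7 had X-box letters 121 bases before its second start, and Robo4 had MYB letters 144 bases before its start.

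Along the leading principal component, which held 81.2% of the variance, the ages were apart, with the KO P15 arrays at -39.1, -53.0 and -56.7 and the KO P20 arrays at 51.4, 55.9 and 57.0. Spearman's rho across probes was 0.897 to 0.906 between KO arrays of 1 age and 0.852 to 0.873 between KO arrays of different ages. KO P15 replicate 1 lay nearest to P20: it was the KO P15 array closest to KO P20 for 51.3% of the risen genes and 53.2% of the fallen ones. The comparison called 11168 probes without it and 11585 with it. KO P20 replicates 1 and 3 held transcripts of epididymal type that replicate 2 lacked, which are described with the other tissues. Sertoli and germ-cell markers such as Sox9, Amh, Ddx4 and Sohlh1 were above background on all 6 KO arrays. No probe was named Topaz1 (0 of 45281), so the genotype was not checked against its own transcript.

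Between P15 and P20 most measured pachytene, flagellar axoneme and piRNA pathway genes of the KO testis rose, with median changes of 2.28, 1.64 and 0.92. Many spermatogonial, somatic and X-linked genes fell by smaller steps. Other meiotic and sperm gene lists held risen members but had medians near 0, such as early prophase (0.07), meiotic division (-0.01) and acrosome (0.09). Of 45281 probes, 4567 (10.1%) were higher at P20 and 7018 (15.5%) lower. As genes, 2563 of 19057 (13.4%) rose and 4125 (21.6%) fell. These shares include genes at background, which were seldom called. Of 11608 autosomal genes whose mean over all 12 arrays was above background, 20.96% rose and 32.4% fell. Of 6646 autosomal genes not above it, 1.67% rose and 0.918% fell. The rises were larger: 928 genes rose by over 1 on the log2 scale, 334 by over 2 and 144 by over 3. Among the fallen genes 436 changed by over 1, 2 by over 2 and 0 by over 3. The median change was 0.73 among risen and -0.56 among fallen genes, and -0.02 over all genes. Of the risen genes 239 went from above background on 0 KO P15 arrays to above it on all 3 KO P20 arrays, and 83 fallen genes did the reverse. All KO P20 arrays lay above all KO P15 arrays for 3256 genes (17.1%) and below them for 5045 (26.5%). Under cyclic loess normalization the split turned to 5149 probes higher and 4656 lower.

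The genes of largest rise included several that act in sperm and in late spermatocytes. Catsperz, an auxiliary subunit of the sperm calcium channel CatSper, had log2 levels of 9.31, 8.05 and 8.02 on the KO P15 arrays and 14.20, 14.33 and 14.27 on the KO P20 arrays. The ages did not overlap, and the rise was 5.80 ± 0.43, or 55.7-fold (adjusted p = 6.28e-06). Tdrd6, a Tudor protein of the chromatoid body, the RNA granule of spermatids, went from 8.40, 7.81 and 7.88 to 13.55, 13.77 and 13.76. All 3 P20 arrays were alike, and the rise was 50.8-fold. Adam32, a testis member of the ADAM family of membrane proteases, rose by 5.64 ± 0.22 from 8.10, 7.68 and 7.61 to 13.39, 13.58 and 13.35.

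The MYB letters shown above lie upstream of Tcp10a, a gene of the t-complex region of chromosome 17, whose level was 7.77, 7.54 and 7.54 at P15 and 13.23, 13.19 and 13.09 at P20. The P15 arrays were at the edge of background, and the rise was 46.9-fold. Pabpc2, an intronless poly(A)-binding protein of the testis, and Pgam2, the muscle and sperm phosphoglycerate mutase, rose by 5.55 ± 0.26 and 5.24 ± 0.22. The others among the 12 largest rises were Pebp4, Qrich2, Adam3, Plaat5, Adam5 and Hspb9, with changes between 5.21 and 5.39. Of these, Qrich2 is a protein of the sperm flagellum and Adam3 a sperm surface protein needed for migration through the oviduct. KO P15 replicate 1 was the highest P15 array for 11 of the 12, and all 12 also rose in WT testes.

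**Figure D1:**
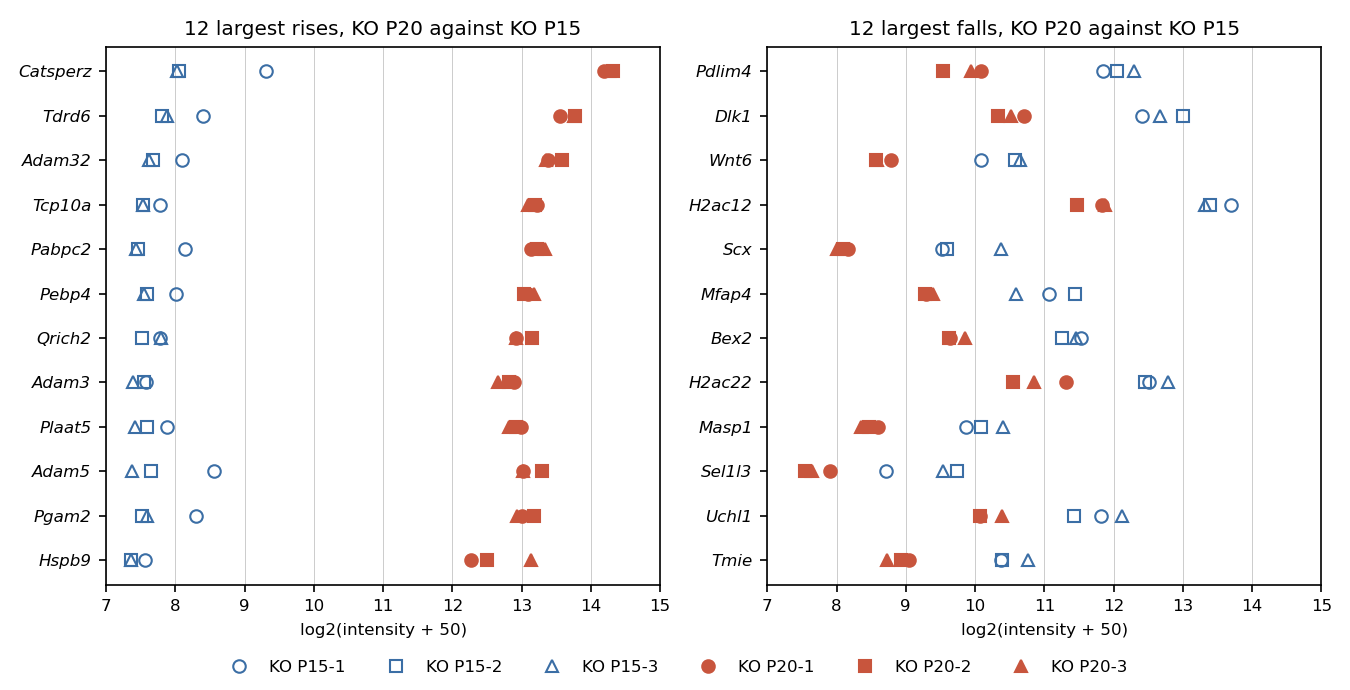
Level of the 12 genes of largest rise (left) and of largest fall (right) on each KO array, as log2(intensity + 50); open blue symbols are P15 arrays, filled red symbols P20 arrays, and the shape gives the replicate. The genes were picked from those whose P15 and P20 arrays do not overlap. The rises (Catsperz 5.80) span more than the falls (Pdlim4 -2.21).

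The largest falls included genes of somatic and immature cells. Pdlim4, a PDZ and LIM domain protein of the actin cytoskeleton, stood at 11.85, 12.05 and 12.30 at P15 and at 10.08, 9.54 and 9.94 at P20, a fall of 4.64-fold (-2.21 ± 0.19, adjusted p = 1.70e-05). Dlk1, an imprinted Notch-like ligand of immature stromal cells, went from 12.41, 13.00 and 12.67 to 10.71, 10.33 and 10.53. As for the rises, a lack of overlap between the ages was a condition for being among these 12 falls. Wnt6 (a secreted signal), Scx (the tendon transcription factor scleraxis), Mfap4 (an elastic fibre protein) and Masp1 (a complement lectin-pathway protease) fell by 1.65 to 1.79 on the log2 scale. H2ac12 and H2ac22, replication-dependent histone H2A genes, changed by -1.74 ± 0.19 and -1.68 ± 0.24, and X-linked Bex2 by -1.71 ± 0.18. Uchl1, a ubiquitin hydrolase of spermatogonia and neurons, fell 3.05-fold, and Sel1l3 and Tmie fell by 1.63 and 1.61. Mfap4 passed in all alternatives but 1. All 12 also fell in WT testes.

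In the list of undifferentiated spermatogonia 1 of 19 measured genes rose (5.26%), 9 fell (47.4%) and 9 did not pass, with a median change of -0.19. Over all genes 13.4% rose and 21.6% fell. Sall4, a zinc finger factor of progenitors, stood at 9.98, 10.32 and 10.80 at P15 and at 9.00, 8.90 and 8.71 at P20 (-1.50 ± 0.17). Sohlh1, a helix-loop-helix factor of spermatogonial differentiation, fell 2.63-fold from 12.08, 12.26 and 12.84. P15 replicate 3 was the highest of its group for both. The POU factor Pou3f1 fell by 1.13, and Ret, the signalling receptor for GDNF, by 0.92. Id4, a marker of stem spermatogonia that spermatocytes also express, was the exception and rose by 1.28 ± 0.13.

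Among 13 measured genes of differentiating spermatogonia 1 rose (7.69%) and 8 fell (61.5%, beside 21.6% of all genes), with a median of -0.39. Kit, the receptor for stem cell factor, fell by 0.95 ± 0.09. Rhox13, an X-linked homeobox gene, went from 11.21, 11.54 and 11.57 to 10.38, 10.25 and 9.86. Stra8, the retinoic acid target that licenses meiotic entry, fell by 0.39 ± 0.12 (adjusted p = 0.039). The germ-cell helicase Ddx4 rose by 1.21 ± 0.24, although 1 of its 3 probes went the other way. Dazl, a germ-cell translation regulator, was at 12.22, 12.15 and 11.30 at P15 and at 11.53, 11.50 and 11.57 at P20, where the groups overlapped (-0.36 ± 0.27).

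Of 28 measured early meiotic prophase genes 9 rose (32.1%), 4 fell (14.3%) and 15 did not pass (median 0.07). The share that fell was below the 21.6% of all genes, while 13.4% of all genes rose. Psmc3ip, the HOP2 partner of strand exchange, went from 11.78, 11.12 and 10.52 to 12.91, 12.85 and 13.04 (1.79 ± 0.27). Spo11, which makes the programmed double-strand breaks, rose 2.51-fold, with 1 of 3 probes opposite. The axial and central element genes Sycp2 and Syce1 rose by 1.26 and 1.13, and the cohesin subunit Stag3 by 1.03 ± 0.12. In the other direction Rec8, a meiotic cohesin, fell by 0.56 ± 0.07, Rec114, a partner of break formation, by 0.74 ± 0.09, and X-linked Tex11 by 0.91 ± 0.17. The cohesin Smc1b had a change of 0.03 ± 0.18 and Syce3 one of 0.36 ± 0.17. Sycp3 and Dmc1 had no KO array above background, so that these probes say nothing of the 2 genes.

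Pachytene genes rose as a group. Of 26 measured, 19 rose (73.1%), 0 fell and 7 did not pass, beside 13.4% of all genes rising, and the median change was 2.28. On the single arrays the median level of the list was 7.79, 7.69 and 7.74 at P15 and 10.64, 10.77 and 10.80 at P20. Ldhc, the germ-cell lactate dehydrogenase, stood at 12.44, 10.07 and 9.66 at P15 and at 14.93, 15.01 and 15.12 at P20. P15 replicate 1 was thus over 2 log2 units above its group, and the change of 4.29 carried an SE of 0.77. Pgk2, the autosomal copy of phosphoglycerate kinase, rose 13.7-fold, and Brdt, a testis bromodomain protein, 5.76-fold. Ccna1, the cyclin A of the meiotic divisions, was above background on 0 of 3 arrays at P15 and at 10.00, 10.47 and 10.80 at P20, at least 7.41-fold higher. Of the 7 members that did not pass, 6 were above background on 0 KO arrays, Mybl1 among them.

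The piRNA pathway, which guards the germ line against transposons, rose with them. Of 21 measured genes 16 rose (76.2%), 0 fell and 5 did not pass, with a median of 0.92. Piwil1, the pachytene Piwi protein, was at 11.46, 9.72 and 9.85 at P15 and at 14.28, 14.09 and 13.88 at P20 (3.74 ± 0.57). Replicate 1 was again the highest of the P15 arrays. Tdrd5 rose 4.09-fold, the helicase Ddx25 3.70-fold and Piwil2, the partner needed earlier in germ-cell life, by 0.70 ± 0.18. Piwil4, the fetal nuclear Piwi protein, had a change of -0.16 ± 0.07. Asz1 overlapped between ages, at 11.36, 11.30 and 10.60 against 11.21, 11.08 and 11.19.

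**Figure D2:**
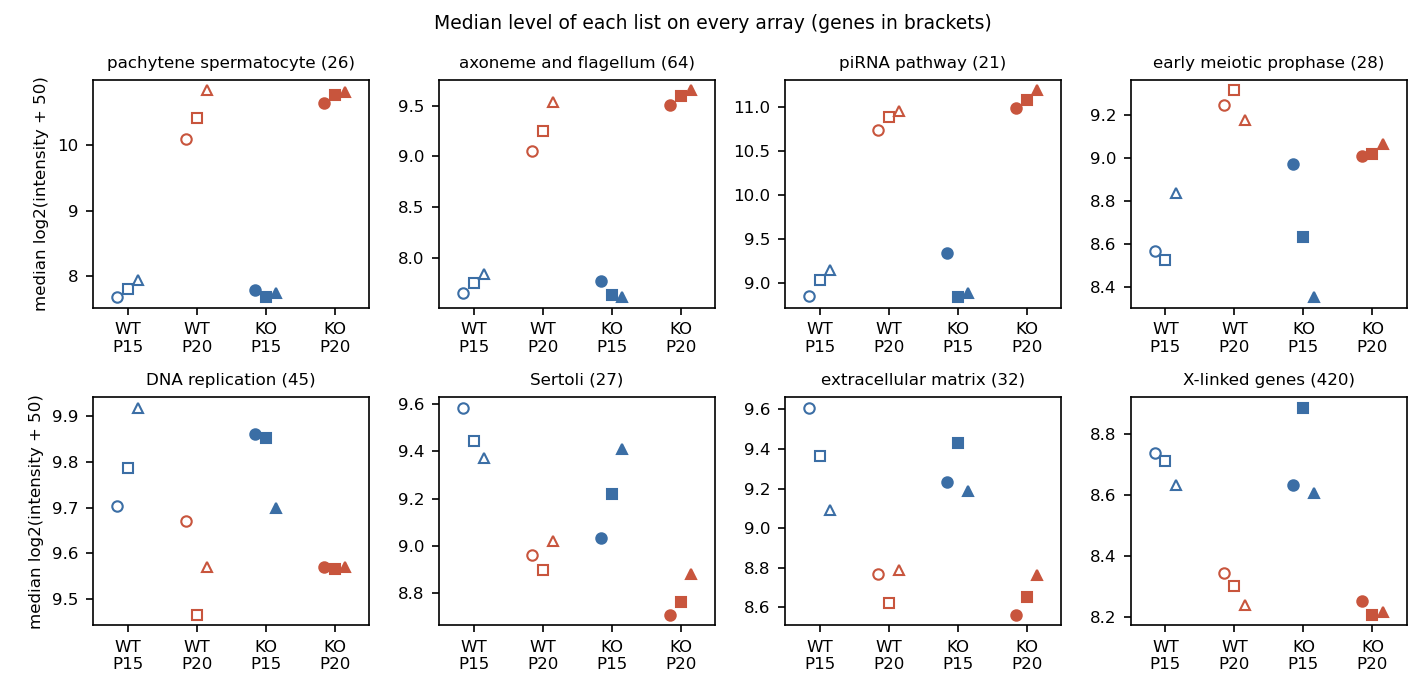
Median log2(intensity + 50) of the measured genes of 7 lists and of X-linked genes on every array; blue marks P15 and red P20, open symbols WT and filled symbols KO, and the shape gives the replicate. In KO the pachytene list went from 7.69 to 7.79 at P15 to 10.64 to 10.80 at P20, while the X-linked genes fell; the panels have separate vertical axes.

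Of 34 measured genes of the meiotic divisions 11 rose (32.4%), 7 fell (20.6%) and 16 did not pass (median -0.01, a sign that several alternatives turned). The share that fell was near the 21.6% of all genes and below the 32.4% of autosomal genes above background. Ccna1, Aurkc (the meiotic Aurora kinase, 3.87-fold), Hspa2 (the chaperone that CDK1 needs in spermatocytes, 3.79-fold) and Aurka (2.75-fold) rose. Plk1, the polo kinase of the G2/M transition, stood at 10.40, 10.37 and 10.37 at P15 and at 9.96, 9.79 and 9.63 at P20. It fell in KO (-0.59 ± 0.18, adjusted p = 0.033) and rose in WT (0.59 ± 0.18, adjusted p = 0.039), but the difference of -1.18 ± 0.25 did not pass (adjusted p = 0.188). Cdc25a, a phosphatase that activates CDKs, fell by 0.46 ± 0.09. The 7 falls became 4 without KO P15 replicate 1, KO P20 replicate 1 or KO P20 replicate 3, 2 under cyclic loess and 1 with KO P20 replicates 1 and 3 left out. The 11 rises became 9 in that last fit and stayed at 11 in the others.

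Axoneme genes made up the largest group of rises among the lists. Of 64 measured genes 49 rose (76.6%), 0 fell and 15 did not pass, with a median of 1.64. Dnaaf1, a dynein assembly factor, went from 9.97, 9.35 and 9.25 to 13.81, 14.14 and 13.92 (21.6-fold). Tekt1, a tektin inside microtubule doublets whose X-box letters is shown above, went from 9.48, 8.01 and 8.07 to 12.23, 12.56 and 12.86. Cfap206, a radial spoke protein, rose 18.4-fold, and Dnah8, a dynein heavy chain of sperm, 13.7-fold from 8.20, 7.73 and 8.05. Dnah8 and Cfap206 had no overlap between ages. Dynein heavy chains differed among themselves: Dnah2 and Dnah17 also rose, each with 1 of 3 probes opposite, while Dnah11, best known from motile cilia outside the testis, had a change of -0.30 ± 0.12 and Dnah5, Dnah6, Dnah9 and Dnah10 were above background on 0 KO arrays. Foxj1, the master factor of motile cilia, had a change of 0.01 ± 0.05. Of the RFX factors, Rfx8 rose 10.1-fold, Rfx4 7.84-fold and Rfx2, needed for spermatid flagella, 7.39-fold, whereas Rfx1 fell by 0.83 ± 0.14 with 2 of 4 probes opposite and Rfx3 had a change of 0.06.

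In the acrosome list 10 of 23 rose (43.5%, beside 13.4% of all genes), 0 fell and 13 did not pass (median 0.09). Spink2, an inhibitor of acrosomal proteases, was at 8.48, 7.67 and 7.62 at P15 and at 12.84, 12.76 and 12.50 at P20 (27.4-fold). Dkkl1 rose 18.6-fold and Acrbp, which binds proacrosin, 10.8-fold, and Acr, the protease itself, by 3.06 ± 0.21. By contrast Acrv1, Spaca7, Spam1 and Zp3r, products of later spermatids, were above background on 0 of 6 KO arrays.

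Of 13 genes of the CatSper channel and its partners 6 rose (46.2%) and 1 fell (7.69%). Besides Catsperz, the pore subunit Catsper2, with the MYB letters close to its start, went from 9.85, 9.44 and 9.04 to 12.87, 12.98 and 12.80, and Catsperd and Catsperg2 rose 9.82-fold and 6.22-fold. The pore subunits Catsper1 and Catsper4 were above background on 0 KO arrays. Of 19 outer dense fibre and fibrous sheath genes 6 rose (31.6%) and 1 fell (5.26%). Odf4 rose 25.5-fold and Odf2 8.53-fold, while Odf1 had a change of 0.04 ± 0.18 and Akap3 one of 0.21 ± 0.15. Akap4, X-linked, was at background throughout. Of 19 spermatid chromatin genes 5 rose (26.3%, beside 13.4% of all genes) and 2 fell (10.5%, beside 21.6%). Crem rose from 8.60, 8.01 and 7.91 to 10.17, 10.45 and 10.84, with 1 of 7 probes opposite. The transition protein Tnp2 was above background on 0 KO arrays, the protamine Prm1 on 1 P20 array, and Tnp1 had a change of -0.03 ± 0.07. The rises in this list became 3 without KO P20 replicate 1.

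**Figure D3:**
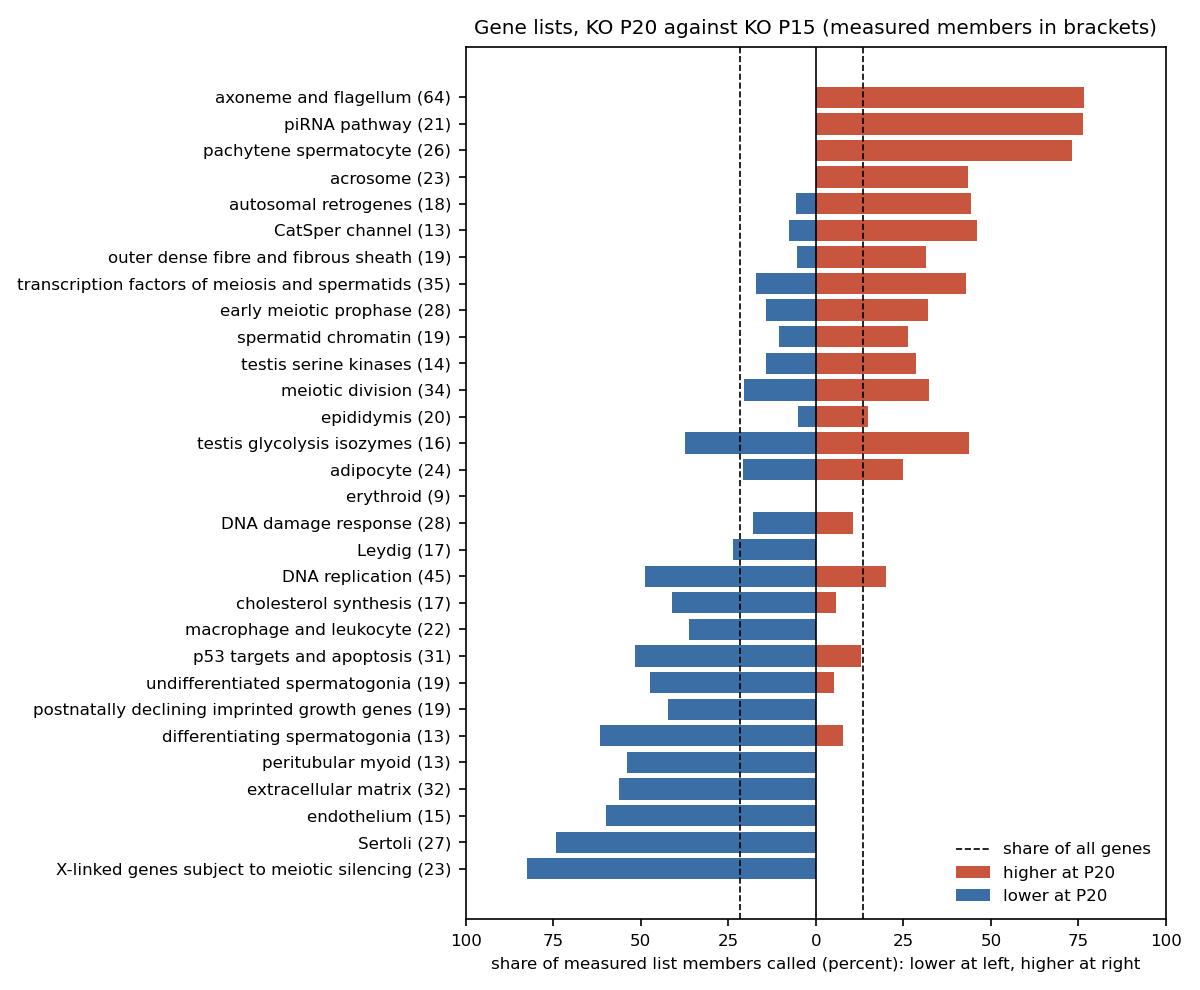
Share of the measured members of each of 30 gene lists that rose (red, right) or fell (blue, left) in KO testes between P15 and P20, in percent; dashed lines mark the shares of all genes, 13.4% higher and 21.6% lower. The axoneme, piRNA and pachytene lists lie at the top with no member that fell, and the silenced X-linked, Sertoli and endothelial lists at the bottom with none that rose.

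Regulators and other testis families moved both ways. Of 35 transcription factors of meiosis and spermatids 15 rose (42.9%) and 6 fell (17.1%), among the risen Kctd19 (6.58-fold), Hsf5 (5.31-fold), Tcfl5 (3.94-fold) and Ovol1 (2.23-fold). Over all genes 13.4% rose and 21.6% fell. Of 14 testis kinases 4 rose (28.6%) and 2 fell (14.3%), with Cdkl2 4.17-fold higher. Of 18 genes in a list of autosomal retrogenes, intronless copies of X-linked genes, 8 rose (44.4%) and 1 fell (5.56%). The one that fell, Tbl1x, is itself X-linked and so not an autosomal copy, though it is counted in the 18. The ADAM family, listed after its values were seen, had 7 rises (21.9%) and 1 fall (3.1%) among 32 measured genes.

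Of 16 measured glycolysis genes 7 rose (43.8%) and 6 fell (37.5%), beside 13.4% and 21.6% of all genes. Of autosomal genes above background 32.4% fell. The forms used in germ cells, Pgam2, Ldhc, Pgk2 and Eno4, rose by 1.86 to 5.24. Ldha, whose CRE is shown above, rose 6.34-fold from 11.14, 11.11 and 10.54 to 13.63, 13.61 and 13.54. The widely used Aldoa, Pkm, Gapdh and Pgam1 fell by 0.76 to 1.32, and X-linked Pgk1 by 0.58 ± 0.17. Gapdhs, the sperm form of GAPDH, was above background on 0 KO arrays.

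Of 45 measured replication genes 22 fell (48.9%), 9 rose (20.0%) and 14 did not pass (median -0.24). Falls made up 21.6% of all genes and 32.4% of autosomal genes above background. The falls became 15 with KO P20 replicates 1 and 3 left out. Mcm2, a subunit of the replicative helicase, went from 10.40, 10.18 and 10.36 to 9.08, 9.48 and 9.21, and Cdt1, which loads that helicase, fell 2.09-fold. Mcm5, Fen1 and Lig1 fell by 1.01 to 1.02. Chaf1a, a histone chaperone subunit, rose 2.45-fold and the reductase subunit Rrm2 2.42-fold, the latter with 2 of 3 probes opposite. Clustered replication-dependent histone genes, a family listed after its values were seen, showed 24 falls (42.9%) and 4 rises (7.14%) among 56 measured (median -0.35). Their near-identical sequences can share probes.

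Of 31 p53 targets and apoptosis genes 4 rose (12.9%), 16 fell (51.6%) and 11 did not pass (median -0.19). Gadd45a, a stress-induced growth arrest gene, went from 10.28, 9.82 and 10.38 to 8.86, 8.46 and 8.99. Ccng1 and Phlda3, p53 targets, fell 2.29-fold and 2.13-fold. The pro-apoptotic BH3 genes Bik and Bid fell by 0.87 and 0.77. Mdm2, the p53 ubiquitin ligase, rose by 0.73 ± 0.15, and Cdkn1a, which encodes p21, had a change of 0.07 ± 0.07. In the DNA damage response 3 of 28 rose (10.7%), 5 fell (17.9%) and 20 did not pass. Over all genes 13.4% rose and 21.6% fell. Of the 28 genes, 24 were above background in a KO group. Autosomal genes above background had higher shares than this list, 20.96% up and 32.4% down. Fancd2, of the Fanconi pathway, rose 1.89-fold, Atm, the break-sensing kinase, fell 1.65-fold, and H2ax, the histone of the silenced sex chromosomes, had a change of 0.24 ± 0.17. The 5 falls became 2 without KO P20 replicate 1 and 3 without KO P15 replicate 2 or KO P20 replicate 2, and the 3 rises 5 without KO P15 replicate 2. Cyclic loess gave 5 rises and 1 fall with a median of 0.06 in place of -0.01, and the intensity trend or normexp with an offset of 16 gave 2 falls.

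The X chromosome fell in KO testes. Of its 710 measured genes 4 rose (0.563%) and 292 fell (41.1%), against 13.9% up and 20.9% down among 18254 autosomal genes. Of the 420 X genes whose mean over all 12 arrays was above background, 1 rose and 290 fell (69.0%), and 390 had a negative change. Their median change was -0.46, with quartiles of -0.80 and -0.17, beside -0.09 for 11608 autosomal genes chosen the same way. The median level of these X genes was 8.63, 8.89 and 8.61 on the KO P15 arrays and 8.25, 8.21 and 8.22 on the KO P20 arrays, without overlap. In WT testes 217 of them fell (51.7%), with a median of -0.35. With KO P20 replicates 1 and 3 left out, 177 of the 710 X genes fell, and without KO P20 replicate 3 the 4 rises became 2.

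The list of X-linked genes known to be silenced in meiosis had 19 falls and 0 rises among 23, with a median of -0.78. Usp26, a testis deubiquitinase, went from 11.20, 11.30 and 11.41 to 10.00, 10.04 and 10.07. Mageb4 fell 2.04-fold, and Fmr1nb from 11.52, 11.13 and 10.41 to 9.73, 9.87 and 10.19. Among all X genes the steepest falls included Bex2, Rhox8, a homeobox gene of Sertoli cells (-1.49 ± 0.14), and the ribosomal protein gene Rpl36a (-1.40 ± 0.12). The 1 X gene that rose above background was Dmrtc1b, with a change of 0.60 ± 0.14. The other 3 risen X genes, Il13ra2, Olfr1325 and Tmsb15l, stayed near background with changes of 0.10 to 0.17. Rhox8, Rpl36a and these 4 genes were named after their values were seen. The Sertoli list fell too, and its part in the X-linked falls was not tested.

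**Figure D4:**
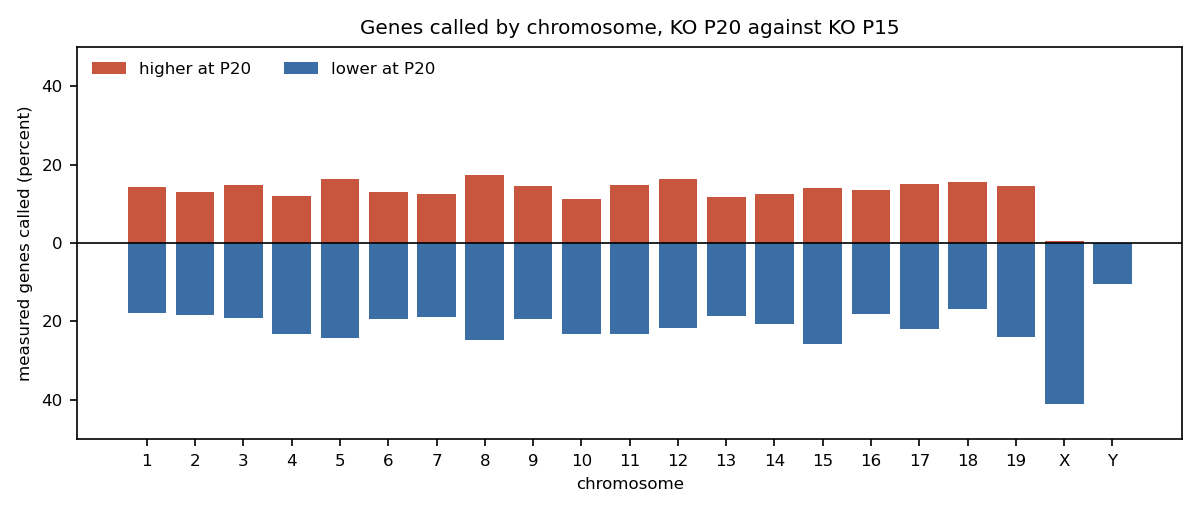
Share of the measured genes of each chromosome that rose (red, upward) or fell (blue, downward) between P15 and P20 in KO testes, in percent. Autosomes range from 11.3% to 17.4% up and from 16.9% to 25.8% down; the X chromosome has 0.563% up and 41.1% down, and the Y chromosome, with 19 genes, 0 up and 2 down.

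On the Y chromosome 0 of 19 measured genes rose and 2 fell in KO testes, Eif2s3y, a translation factor subunit (-0.83 ± 0.18, 1 of 2 probes opposite), and the demethylase Kdm5d (-0.24 ± 0.05). In WT testes 7 of the 19 rose. The multicopy spermatid gene Ssty2 stood at 7.51, 7.39 and 7.43 on the KO P20 arrays, all below background, and at 8.00, 9.68 and 10.08 on the WT P20 arrays. Its difference of -1.80 ± 0.57 between the age changes did not pass (adjusted p = 0.478), nor did that of Gm20815 (-2.84 ± 0.61, adjusted p = 0.196). Probes of multicopy genes cannot be assigned to 1 copy.

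Sertoli genes fell: of 27 measured genes 0 rose, 20 fell (74.1%) and 7 did not pass, with a median of -0.51. The median level of the list was 9.03, 9.22 and 9.41 at P15 and 8.71, 8.76 and 8.88 at P20. Dhh, the hedgehog ligand of Sertoli cells, went from 11.94, 12.06 and 12.30 to 10.95, 10.94 and 10.73 (2.34-fold lower). Rhox5, an X-linked androgen target, fell 2.46-fold, the steroid enzyme Hsd17b1 2.48-fold and the activin subunit Inhba 2.17-fold. Sox9 fell by 0.90 and Amh, the hormone of immature Sertoli cells, by 0.78. Trf, the iron carrier transferrin, had levels of 8.85, 8.83 and 8.76 at P15 and 8.71, 8.76 and 8.88 at P20, which overlapped.

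Around the tubule, matrix and wall genes fell. In the extracellular matrix list 18 of 32 fell (56.2%) and 0 rose (median -0.67), beside 21.6% of all genes falling. Col4a2, a basement membrane collagen, went from 11.37, 11.58 and 11.57 to 10.01, 10.10 and 10.06, and elastin (Eln) fell 2.23-fold. Col1a1, a fibrillar collagen, had a change of -1.09 ± 0.36 that did not pass (adjusted p = 0.051). Of 13 peritubular myoid genes 7 fell (53.8%) and 0 rose. The myosin light chain Myl9 and the tropomyosins Tpm1 and Tpm2 fell by 0.94 to 0.98, while Acta2, smooth muscle actin, had a change of -0.24 ± 0.11. Endothelial genes fell in 9 of 15 cases (60.0%), with Egfl7 2.03-fold lower.

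Falls made up 21.6% of all genes and 32.4% of autosomal genes above background. Macrophage and leukocyte genes fell in 8 of 22 cases (36.4%, close to the latter), led by the lysozyme Lyz1 (1.90-fold). Without KO P20 replicate 1 there were 4 such falls, and without replicate 3 there were 5. Growth genes under imprinting fell in 8 of 19 cases (42.1%). Igf2, a fetal growth factor, went from 12.33, 12.89 and 12.60 to 11.28, 11.16 and 11.05, and Ndn fell 2.88-fold. Cholesterol synthesis genes had 7 falls (41.2%) and 1 rise (5.88%) among 17, with Srebf2, their transcription factor, 1.92-fold lower.

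Leydig genes had 4 falls and 0 rises among 17, 23.5% against 21.6% of all genes. The falls became 2 without KO P20 replicate 3. Insl3, a Leydig hormone, was at 11.18, 11.68 and 10.08 at P15 and at 11.07, 10.98 and 11.20 at P20. Cyp17a1, an enzyme of androgen synthesis, was at 12.12, 12.40 and 7.99 at P15 and at 10.34, 10.09 and 10.21 at P20. Its change of -0.62 ± 1.18 did not pass. KO P15 replicate 3 was thus the low KO P15 array for both. WT P15 replicate 1 was also low for Cyp17a1, at 8.23 beside 12.11 and 11.44 on the other WT P15 arrays.

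Among markers of tissues outside the seminiferous compartment, some of epididymal type differed between the KO P20 arrays. The epididymal genes Defb2, Adam7 and Spag11a were near background on all P15 arrays and on KO P20 replicate 2. On KO P20 replicates 1 and 3, Defb2 stood at 10.83 and 11.13, Adam7 at 8.66 and 9.08 and Spag11a at 8.65 and 9.01. These 3 were called rises. Leaving out KO P20 replicate 2, the array without them, kept 3 rises in the list, leaving out any other single KO array left 0, and leaving out single WT arrays left 1 or 2. Of the 20 epididymis genes measured 3 rose (15.0%, near the 13.4% of all genes), 1 fell (5.0%) and 16 did not pass. The defining Gpx5, Crisp4 and Rnase9 had no KO array above background. The summed intensity of the list was 11154, 7466 and 12572 on KO P20 replicates 1, 2 and 3, and 13121 to 14050 at P15. With KO P20 replicates 1 and 3 left out, 48 of 64 axoneme, 18 of 26 pachytene and 13 of 21 piRNA genes still rose, and the falls numbered 11 of 27 Sertoli, 9 of 32 matrix, 11 of 23 silenced X-linked, 10 of 31 p53 and apoptosis and 5 of 15 endothelial genes. That fit rests on 1 KO P20 array, assumed to vary like the others.

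Of 24 adipocyte genes 6 rose (25%) and 5 fell (20.8%), the latter close to the 21.6% of all genes, and the median change was -0.003. Adipoq, the fat hormone adiponectin, was at 7.58, 7.51 and 7.60 at P15 and at 8.78, 9.02 and 8.87 at P20, and Car3, a carbonic anhydrase of fat and muscle, was at least 2.32-fold higher. Pnpla2, a lipase of many tissues, rose 2.97-fold, and Angptl4 fell 2.35-fold. Fabp4, Ucp1 and Cd36 had no KO array above background. The summed intensity of the list was 11759 to 13151 at KO P20, 9628 to 11290 at KO P15, 9861 to 11749 at WT P15 and 9080 to 10973 at WT P20. Among 9 erythroid genes the globin Hbb-bs varied from 12.49 to 14.58 within KO P20, and its change of -0.57 ± 0.49 did not pass.

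The same interval in WT testes gave 2132 genes higher (11.2%) and 3155 lower (16.6%). Of the genes that rose in KO 1906 also rose in WT, 655 did not pass there and 2 fell. Of those that fell in KO 2737 also fell in WT, 1387 did not pass and 1 rose. Across 12080 genes above background on all arrays of a group, the KO and WT changes correlated with a Pearson r of 0.957 and a Spearman rho of 0.912, as a description over genes that are not independent. For 4643 genes called the same way in both, rises and falls together, the KO change was 1.17 times the WT change in the median. This ratio was 1.09 without WT P20 replicate 1 or WT P15 replicate 3 and 1.26 without KO P15 replicate 1. It leaves out genes called in only 1 genotype, and list medians went both ways. In KO and WT they were 2.28 and 1.99 for pachytene and 1.64 and 1.30 for axoneme genes. For acrosome genes they were 0.09 and 0.39, and for outer dense fibre and fibrous sheath genes 0.04 and 0.17. These list differences were not tested.

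The difference between the age changes itself passed for 14 genes, 10 with the KO change above the WT change (0.0525%) and 4 with it below (0.021%). As probes these were 25, while 3205 had an unadjusted p of at most 0.05. The count moved between 2 and 69 when single arrays were left out. The RIKEN transcript 4931406B18Rik, on chromosome 7, was at 7.45, 7.53 and 7.50 at KO P15 and at 8.83, 8.91 and 8.95 at KO P20, against 7.54, 7.67 and 7.67 at WT P20. The WT P20 arrays stayed near background, and the difference was 1.24 ± 0.07 (adjusted p = 0.000142). Abcg8, a subunit of a sterol transporter, was at 7.47, 7.38 and 7.45 at KO P15 and at 8.27, 8.36 and 8.24 at KO P20, with WT P20 arrays at 7.53 to 7.64. Psg23, a pregnancy-specific glycoprotein, rose by 0.87 ± 0.06 in KO, with 0.07 in WT. Dnajc7, an HSP70 and HSP90 co-chaperone, rose in KO from 10.85, 10.97 and 11.00 to 11.38, 11.25 and 11.35 and fell in WT by 0.30.

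Adipoq also belonged to these 10, with a difference of 1.53 ± 0.19 (adjusted p = 0.0304). Of the 24 adipocyte genes measured it was the 1 whose difference passed. The summed intensity of that list was higher on the KO P20 arrays, as given above, and its part in the result was not tested. Below WT lay Gldnos, a transcript of chromosome 9, at 7.40, 7.42 and 7.35 at KO P20 and at 8.35, 8.66 and 8.49 at WT P20. It was above background on 0 KO arrays, and the difference was -1.02 ± 0.10. 4930519G04Rik was at 7.35 to 7.49 at KO P20 and 8.32 to 8.75 at WT P20. Ifi213, an interferon-activated gene, had a difference of -0.90 ± 0.12, with KO arrays of 8.01, 8.15 and 7.96 at P15 and 7.89, 7.84 and 7.74 at P20. Tomm40l, a mitochondrial import pore gene, fell in KO by 0.45 and had a WT change of 0.11.

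**Figure D5:**
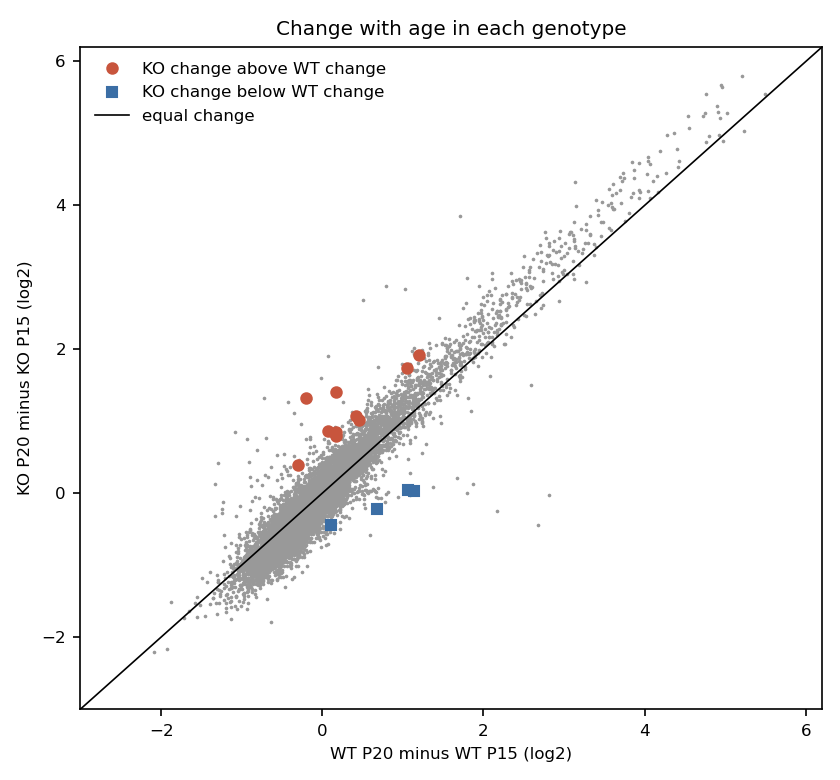
Change from P15 to P20 in KO (vertical) against WT testes (horizontal), in log2 units; grey points are 12080 genes above background on all arrays of a group, the line marks equal change, red circles the 10 genes whose KO change lay above the WT change and blue squares the 4 below. The median ratio of KO to WT change was 1.17 over 4643 genes called the same way in both, rises and falls together. The 14 marked genes have smaller changes than the largest rises.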

How the data were processed

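Total RNA of testis was measured on 12 Illumina bead arrays read with BeadStudio, per the submitters' processing notes. The authors deposited linear intensities, not background-subtracted, and a second table in which those intensities are quantile-normalized over the 12 arrays. A quantile normalization made here differed from that table by at most 0.0124 on the log2 scale. The deposited normalized values were taken as log2(intensity + 50). A model of 4 group means was fitted with limma 3.58.1 in R 4.3.3 over all 12 arrays, with p adjusted by the Benjamini-Hochberg method over 45281 probes, and was tested on simulated data. Background was the mode of each array's log2 values plus 1.645 SD of the values below the mode. A gene above it on 0 of 3 arrays of the lower group is given as at least so many fold higher. Precision is limited by the 3 arrays per group. Of the probes, 34885 had 1 symbol, 18 several and 10378 none.

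The named genes are the 12 of largest rise and of largest fall with no overlap between ages, and a few from each of 30 lists by size of change. Others, both genes that passed and genes that did not, were named after their values were seen. Members and lists were chosen with earlier results of these data known. Alternatives were another normalization, background correction, offset, dim-probe filter, moderation or weighting, a replicate block, and leaving out arrays.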

Additional observations from a re-analysis of the deposited data

Results flagged for a closer look

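The age change differed between KO and WT testes, by the limma test of the difference itself, for 14 genes. Differences are KO change minus WT change on the log2 scale, and all 14 kept their sign in the 24 alternatives. Above WT were Adipoq (1.53), 4931406B18Rik (1.24), Psg23 (0.80), Gm9903 (0.72), Dnajc7 (0.69), Abcg8 (0.69), Bnip5 (0.68), Mpo (0.65), Sfmbt2 (0.62) and Kif9 (0.57). Below WT were Tomm40l (-0.55), Ifi213 (-0.90), Gldnos (-1.02) and 4930519G04Rik (-1.11). 4931406B18Rik passed in all 24 alternatives, Abcg8 in 22, Gldnos in 20 and Dnajc7 in 6, and the others in 9 to 14. Groups of 3 arrays were not tested for outlying samples.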

How the results depend on the processing

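KO P20 against KO P15 called 11585 probes, 2078 with a fold of at least 2 also required and 7078 with KO P20 replicates 1 and 3 left out, an alternative chosen after seeing the data. The other alternatives gave 9336 to 12131, and leaving out single arrays 9763 to 11382. Cyclic loess gave 5149 higher and 4656 lower (52.5% higher against 39.4%), and in WT 57.8% higher against 41.2%. The WT comparison called 9109 probes. The difference called 25 probes, 6 under cyclic loess, 15 under 75th percentile scaling, 41 with normexp and an offset of 16, 67 with an intensity trend and 61 with KO P20 replicates 1 and 3 left out. Leaving out single arrays gave 2 (without WT P15 replicate 2 or KO P15 replicate 2) to 69 (without WT P20 replicate 1). The causes were not tested.

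With the replicate number as a block, the difference called 1 probe and KO P20 against KO P15 called 10708. Deviations of KO P15 and KO P20 arrays of the same number from their group means correlated at -0.407, 0.049 and -0.194. Arrays of different number were not set beside them, so these values do not decide whether the numbers pair the arrays.

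Of 135 genes that were picked by the naming rules and passed, 118 passed in every alternative and 0 reversed. Other genes named here as passing, such as Kit, Stra8 and Plk1, were not followed over the alternatives. Adam7, C1qb, Defb2 and Spag11a were lost in 8 to 15 alternatives. Falls in the endothelial list became 5 under cyclic loess or 75th percentile scaling. Genes near background have compressed folds.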
